A study of Drosophila melanogaster with 31 samples.

Results

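The cytosolic ribosome of Drosophila melanogaster is built from ribosomal RNA and a set of proteins whose genes carry the symbols RpL (large subunit), RpS (small subunit) and RpLP (the stalk of the large subunit). Genes were taken as members when their symbol began with RpL, RpS or RpLP, which leaves out the mitochondrial ribosomal protein genes (mRpL and mRpS). The rule used no measured value. It gave 92 members among the 13821 genes of the series. By symbol, 50 belonged to the large subunit, 38 to the small subunit and 4 to the stalk, RpLP0-like among them. For 65 members the protein number in the symbol was theirs alone, and the other 27 shared 13 protein numbers. Symbols ending in -like were counted with their namesakes. The members lie on chromosome arms 3R (23), 2R (21), 2L (19), 3L (14) and X (14) and on chromosome 4 (1).

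Ribosomal protein genes are housekeeping genes, and their mRNAs are short and among the most abundant of a cell. In flies, loss of a single copy of many of them gives the Minute phenotype of slow development and thin bristles. Their promoters commonly hold the polypyrimidine initiator (TCT), which is read by the TBP-related factor Trf2 rather than by TBP, and the TOR pathway adjusts both their transcription and the translation of their mRNAs to nutrients and growth signals. Neurons need ribosomes in the cell body and, for local translation, in dendrites and axons.

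RNA was sequenced from 31 libraries of male flies, made from total RNA with an Illumina TruSeq kit. Antennae (2nd and 3rd segments, flies of 4 to 5 days) came from the wild-type strain OreR and from Orco2, a mutant of the odorant co-receptor gene Orco, each sensory deprived (0 min) or exposed to odor and light, with 2 libraries per group. The label of the exposed antennae names 10, 20 and 30 min together, so their duration is not known. Brains were all from OreR: flies of 4 to 5 days (called 5-day here) at 0, 10, 20, 30 and 45 min of odor and light with 3 libraries each, and flies of 10 and of 25 days at 0 and 30 min with 2 libraries each. All animals had been kept from stimulation before the exposure, and 0 min is the deprived control. Replicates are described as biological. How many flies went into a library is not given, so p-values measure the spread between these libraries only. In whole tissue, fewer cells of a type and less RNA per cell cannot be told apart.

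Libraries held 18.5 M to 54.9 M estimated counts in antennae and 19.3 M to 76.7 M in brains. Levels are given as normalised CPM, counts scaled to the total of the library. Orco measured 1745 to 1776 CPM in OreR antennae and 6.68 to 7.47 CPM in Orco2 antennae, without overlap. The odorant-binding protein gene lush ran from 1013 to 1454 CPM in antennae and did not exceed 0.234 CPM in brains, and the neuronal gene elav ran from 426 to 1102 CPM in brains and from 114.6 to 218 CPM in antennae. In 5 of the 23 brain libraries, genes outside the ribosomal set deviated unusually far from the other brains: the 5th percentile of their log2 deviation lay between -1.94 and -0.73, against -0.54 to -0.20 in the other 18. These are the 5-day libraries 0 min B, 0 min C and 20 min C and the 25-day libraries 0 min B and 30 min B. They are called wide libraries below, a choice made after seeing the data, and the brain comparisons are given with and without them. Without them, the groups 5-day 0 min, 25-day 0 min and 25-day 30 min keep 1 library each, which is then assumed to vary like the others. Replicate letters A, B and C, and within 5-day A and B also the exposure time, go with technical sets. The mean fragment length implied by the deposited tables was 370 bases in 5-day A and B at 0, 10 and 20 min. It was 336 in all other 5-day brains, 326 in A and 336 in B of the older brains, and 299 to 355 in antennae.

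The members together took 3.29% to 4.23% of the estimated counts in antennae. In 5-day brains that were not wide they took 1.67% to 2.49%, in 10-day brains 2.97% to 3.21%, and in the 25-day A libraries 3.32% at 0 min and 3.26% at 30 min. In the 5 wide libraries the share was 1.08% to 1.43%, below every other library. The order of the tissues depended on the scale. Counts are not corrected for length. TPM uses a length reduced according to the fragment length of the library, which for a 524-base RpL32 transcript ran from 155 to 226 bases. The part of each in the change of order was not tested. The count-weighted length had a median of 748 bases over the members and 1963 bases over all genes tested in brain. As a share of summed TPM (transcript abundance scaled by length), antennae held 9.39% to 10.8% and 5-day brains that were not wide 9.92% to 12.2%, so these groups overlapped. The 10-day brains (13.5% to 14.8%) and the 25-day A brains (14.6% and 14.2%) were above both on that scale, and the wide libraries (5.95% to 7.83%) were again the lowest.

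**Figure D1:**
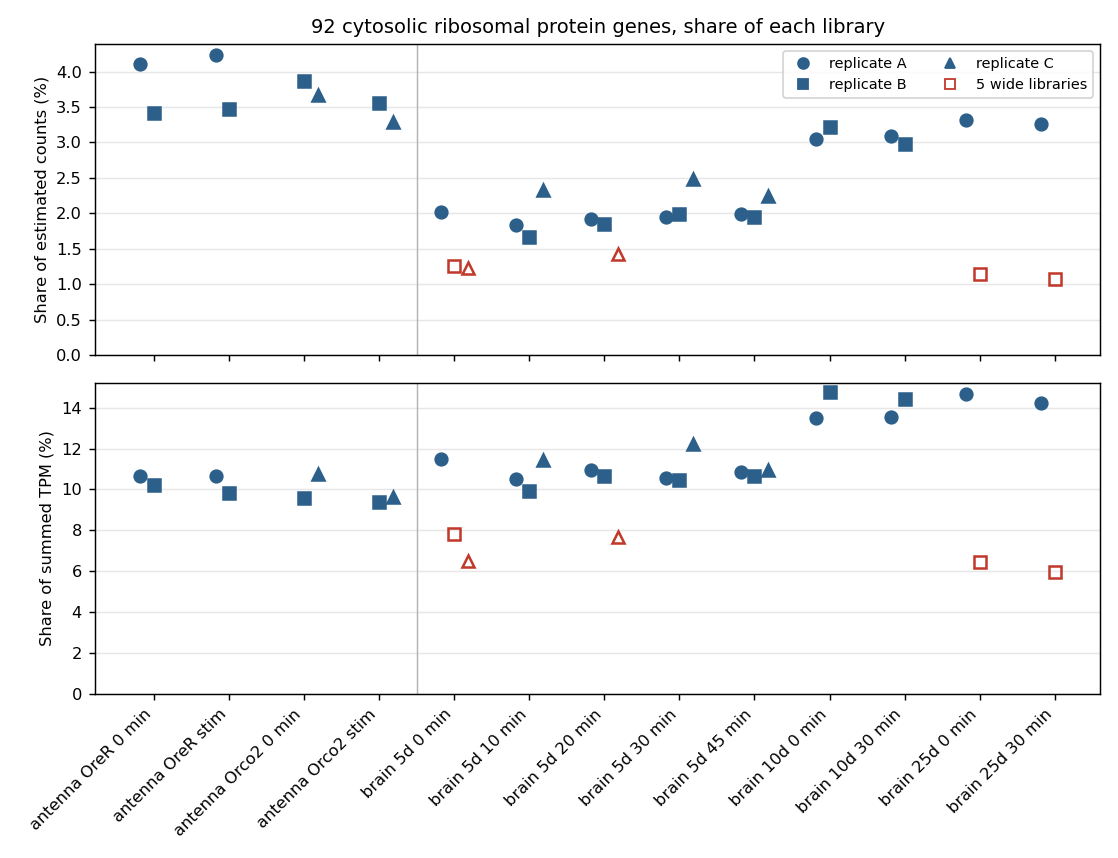
Share of the 92 ribosomal protein genes in each library, as percent of estimated counts (upper panel) and percent of summed TPM (lower panel), by group on the horizontal axis. Each symbol is 1 library, its shape gives the replicate letter and open red symbols mark the 5 wide libraries, which lie at 1.08% to 1.43% of counts, below all others.

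The balance of the subunits moved little between ordinary libraries. The ratio of large-subunit to small-subunit TPM was 1.39 to 1.48 in antennae and 1.27 to 1.37 in the 18 brains that were not wide, and it reached 1.69 in the wide set. Compared per length, 80 members had a median over 100 TPM in antennae and 79 did so in the 18 brains, while 9 lay under 10 TPM in each. In between were RpL7-like, RpLP0-like and RpS15Ab in both tissues, and RpL41 in brains. Among those over 100 TPM levels ran from 242 to 2542 TPM in antennae (lower to upper quartile 963 to 1481 TPM) and from 237 to 3552 TPM in the 18 brains (948 to 1789 TPM). Genes whose products mostly enter the ribosome in equal number thus differed in mRNA level.

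In the antenna, the highest median levels were 2542 TPM for RpS25, 2311 TPM for RpL36, 2151 TPM for RpS15, 2014 TPM for RpS30 and 1937 TPM for RpL27A. RpS30 is made as a fusion with a ubiquitin-like protein, and RpS25 is a small-subunit protein known in yeast and human cells for its part in internal initiation on viral RNAs. In the 18 ordinary brains the highest were RpL36 at 3552 TPM, RpL5 at 3271 TPM, RpS30 at 3067 TPM, RpS25 at 2985 TPM and RpL21 at 2777 TPM. With the wide libraries included, RpL21 (3154 TPM) stood above RpS30 (2968 TPM) and RpS25 (2938 TPM). RpL5, which carries the 5S RNA into the large subunit together with RpL11, thus stood among the highest in brain but had 1566 TPM in antennae. The stalk genes, whose products recruit the GTPases of elongation, had 748 TPM (RpLP0, under the lower quartile), 1343 TPM (RpLP1) and 1268 TPM (RpLP2) in antennae. In the 18 brains RpLP0 had 853 TPM, RpLP1 861 TPM and RpLP2 532 TPM, all under the lower quartile there.

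The levels of the shortest mRNAs differed between libraries of short and long fragments, though not in strict order. RpL39 (288 bases) never exceeded 12 counts, and RpL41, the shortest ribosomal protein (320 bases), ranged from 0 to 58.8 CPM. At fragment lengths of 299 and 302 bases RpL41 had 26.9 to 58.8 CPM, at 326 bases 0.99 to 1.31 CPM, at 336 bases 0.17 to 1.49 CPM, at 355 bases at most 0.18 CPM, and at 370 bases 0 counts in all 6 libraries, where 3 counts would be 0.10 to 0.13 CPM. RpL29, with a longest mRNA of 389 bases, had 82.5 to 100.5 CPM at 299 and 302 bases, 58.2 to 70.7 CPM at 326 bases, 7.19 to 45.8 CPM at 336 bases, 20.9 to 26.9 CPM at 355 bases and 9.66 to 14.2 CPM at 370 bases. The 13 libraries at 336 bases, wide ones among them, thus overlapped those at 355 and 370 bases. OreR antennae show this within a group, with RpL29 at 99.1 CPM in A (302 bases) and 26.9 CPM in B (355 bases). For RpL29, RpL39 and RpL41, tissue or age and the fragment length of the libraries cannot be told apart. RpL29 had the largest spread around the other members in antennae (SD 0.95 on the log2 scale).

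**Figure D2:**
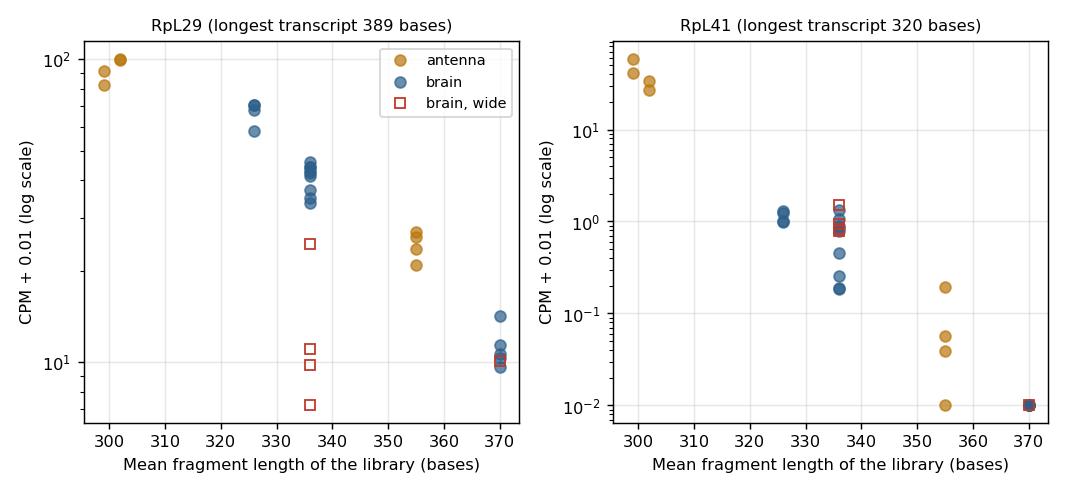
Level of RpL29 and RpL41 in each of the 31 libraries (CPM + 0.01, log axis) against the mean fragment length of the library in bases, with antennae, brains and wide brain libraries marked. In RpL41 the libraries at 299 and 302 bases lie at 26.9 to 58.8 CPM and those at 370 bases at 0.

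Of the 13 protein numbers with more than 1 gene, 7 drew nearly all their mRNA from a single gene. RpL37-2, RpL10Aa, RpS10a, RpS19b, RpS28a and RpS28-like did not exceed 0.21% of the summed CPM of their pair or trio in any library. RpS5b, known from the female germ line, reached at most 0.72% (brain), and RpL22-like, known from the testis, reached 0.37% in antennae and had at most 1 count in any brain. In the other 6 pairs both genes were measured. RpS14b supplied 25.4% to 31.3% of the RpS14 pair in antennae and 7.16% to 22.5% in brains, RpL34a 18.6% to 21.7% and 13.9% to 46.5%, and RpS15Ab 4.97% to 6.45% and 2.88% to 3.88%. The tissues did not overlap for RpS14 and RpS15A, with the lesser copy taking more in antennae. RpL24-like, RpL7-like and RpLP0-like resemble assembly factors of the large subunit known from yeast. They were paired by symbol only, so their shares need not be those of copies of the same protein. RpL24-like took 15.5% to 20.1% of its pair in antennae and 27.8% to 46.6% in brains, without overlap, while RpL7-like took 2.54% to 3.35% in antennae and 2.53% to 23.2% in brains, and RpLP0-like 1.79% to 2.57% and 1.39% to 6.07%. All brain ranges of the pairs include the 5 libraries called wide, where RpL34b and RpL7 were low. The median over the 23 brains was 15.8% for RpL34a, 34.0% for RpL24-like, 3.64% for RpL7-like and 1.82% for RpLP0-like. Reads shared by near-identical copies were divided by the authors' pseudoalignment. The shares are therefore uncertain for pairs such as RpS14a and RpS14b, which lie next to each other on the X chromosome.

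Antennae and brains were compared in deprived OreR flies to describe the tissues. The 2 antennal libraries had RpLP2 at 185 and 260 CPM and the 3 brain libraries at 58.6, 30.98 and 46.7 CPM, without overlap. The log2 difference was 2.29 ± 0.43 (SE; edgeR's quasi-likelihood test, Benjamini-Hochberg adjusted p = 0.000102). RpLP1 (1.84 ± 0.33), RpL37A (1.68 ± 0.24), RpS13 (1.43 ± 0.32), RpS15Ab (1.43 ± 0.14) and RpS20 (1.22 ± 0.27) were also higher in antennae, with adjusted p from 2.9e-08 (RpS15Ab) to 0.000647 (RpS13). Of 88 members tested, 40 were higher and 1 lower in antennae, beside 58.1% of all 11772 genes called in either direction and 30.1% called higher. The lower member was RpL5, with 1093 and 1107 CPM in antennae against 1490, 1659 and 2141 CPM in brains (-0.68 ± 0.22, adjusted p = 0.0106). In 73 members both antennal libraries were above all 3 brains and in 1 below, beside 37.4% and 32.6% of genes. The members' median difference was 1.396, against 0.17 over all genes. Among the 40, RpL22-like had 0.196 ± 0.149 CPM (SD, n = 2) in antennae and no count in the 3 brains, so no fold is given. The fragment lengths were 302 and 355 bases in these antennae and 370, 370 and 336 bases in the brains. They thus interleaved, with no length shared by the tissues. A fit with the fragment length as a term called 56.8% of all genes. The part of fragment length in the members' differences was not tested further.

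In that comparison 2 of the 3 brains are wide libraries, and a panel of standard members shows their values. RpL32, the usual reference gene of fly expression studies, had 379 and 372 CPM in antennae and 231 CPM in the ordinary brain A, but 178 and 107 CPM in the wide brains B and C (1.13 ± 0.67, adjusted p = 0.158). RpL3, which lines the peptidyl transferase centre, had 764 and 711 CPM in antennae and 703, 441 and 184 CPM in brains (0.74 ± 0.68, adjusted p = 0.36). RpS6, the substrate of S6 kinase, had 665 and 641 CPM in antennae and 807, 357 and 217 CPM in brains, where brain A exceeded both antennae. RpS27A, a fusion with ubiquitin, had 379 and 316 CPM against 208, 180 and 294 CPM (0.61 ± 0.21, adjusted p = 0.018). RpL40, the other ubiquitin fusion, had 369 and 290 CPM against 274, 274 and 167 CPM (adjusted p = 0.23). Without the 5 wide libraries 46 members were higher and 2 lower (RpL24-like and RpL5), beside 54% of all genes called, and the members' median was 0.72. On log2(TPM + 1) with limma 6 members were higher and 4 lower, beside 62.7% of all genes called. The number called was 18 of 89 without antennal library A (47% of all genes), 21 of 88 without brain B (52%) and 20 of 88 without brain C (54.5%).

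Other parts of the translation machinery differed between the tissues in a mixed way. Of 28 initiation genes 6 were higher in antennae and 3 lower, among the former Thor, the 4E-binding protein under TOR control (2.72 ± 0.59), and among the latter eIF5 (-0.92 ± 0.16). The elongation factor genes eEF1alpha1 (1.39 ± 0.23) and eEF1alpha2 (-1.33 ± 0.15) differed in opposite directions. Of 25 ribosome biogenesis genes 2 were higher and 7 lower, with Nnp-1 at -1.17 ± 0.14. Of 5 promoter factors of ribosomal protein genes, Dref (-0.91 ± 0.09), Trf2 (-1.51 ± 0.31) and Taf1 (-0.84 ± 0.24) were lower in antennae and 1 other was higher. All 31 proteasome genes were higher (median 1.66), as were 26 of 75 nuclear oxidative phosphorylation genes (median 1.07), while 3 of 73 mitochondrial ribosomal protein genes were higher and 4 lower (median 0.33). Cell type markers moved with the comparison: all 8 neuronal markers were lower in antennae (median -2.28) and 5 of 8 glial markers were lower and 1 higher, while all 8 photoreceptor markers (3.99), all 7 olfactory markers (11.2), 8 of 9 muscle markers and 4 of 7 hemocyte markers were higher. Of 7 fat body markers 1 was higher and 2 lower, of 7 testis markers 4 were higher and 1 lower, and of 7 midgut markers none passed. The part of cell makeup in the ribosomal protein differences was not tested.

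Loss of Orco was compared in deprived and in exposed antennae. No member passed the test in either state (edgeR, 0 of 88 each), beside 5.36% of all 11298 genes called at 0 min (2.97% higher, 2.4% lower) and 7.15% after exposure (4.14% higher, 3.01% lower). At an unadjusted p under 0.05 there were 6 members at 0 min and 3 after exposure, beside 16.3% and 21.8% of genes. DESeq2 called 4 and 3, beside 9.84% and 13.7%, and limma on TPM called 0 in both. With the fragment length as a term 4 and 7 were called, beside 11.6% and 18.9%. With the replicate letter as a block, although the genotypes share letter B only, 26 and 11 were called, beside 20.2% and 17.9%. RpL3 was nearest, with 911 and 931 CPM in Orco2 against 764 and 711 CPM in OreR at 0 min (0.36 ± 0.09, adjusted p = 0.0799). After exposure it had 899 and 888 CPM against 779 and 724 CPM (0.23 ± 0.09, adjusted p = 0.194). RpL3 thus did not overlap between the genotypes in either state. RpL4, a large-subunit protein of the exit tunnel, had 589 and 647 CPM against 532 and 536 CPM at 0 min (adjusted p = 0.189), and 636 and 637 CPM against 524 and 529 CPM after exposure (adjusted p = 0.136). RpL10, which joins the large subunit last, had 524 and 565 CPM in exposed Orco2 against 731 and 625 CPM (-0.33 ± 0.11, adjusted p = 0.135). For RpL22-like the deprived Orco2 antennae measured 1.52 ± 0.949 CPM (SD, n = 2), and those of OreR 0.196 ± 0.149 CPM (adjusted p = 0.125).

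The members' median difference between the genotypes was 0.03 at 0 min and -0.06 after exposure. At 0 min 16 members were higher in both Orco2 libraries than in both OreR libraries and 11 lower, beside 20.3% and 23.2% of all genes. After exposure the counts were 12 and 18, beside 29% and 20.7%. Of the related lists, mTor, the kinase of the TOR pathway, was higher in exposed Orco2 antennae (0.81, adjusted p = 0.0189) and was at 0.54 ± 0.14 at 0 min (adjusted p = 0.0833), and mRpL39 was higher in both states (1.17 ± 0.21 at 0 min, adjusted p = 0.0258). No gene of translation initiation (0 of 28), elongation (0 of 9), ribosome biogenesis (0 of 25) or the proteasome (0 of 31) passed in either state. Beside this, 3 of 6 fat body markers and 2 of 6 hemocyte markers were higher in Orco2 at 0 min, and all 9 muscle markers had values below 0 with none called. After exposure 2 of 6 fat body and 3 of 6 hemocyte markers were higher and 1 of 9 muscle markers was lower. Their part was not tested.

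Exposure of antennae to odor and light called no member in either genotype and no gene of the 11298 tested (edgeR, 0% called). At an unadjusted p under 0.05 there were 0 members in each, against 186 genes in OreR and 241 in Orco2. DESeq2 also called 0 members, beside 0.0797% and 0.266% of genes, and limma on TPM called 0, beside 0%. The members' median was 0.01 in OreR and -0.09 in Orco2. In OreR 5 members were higher and 10 lower in both exposed than in both deprived libraries, beside 8.37% and 12.6% of genes. In Orco2 only 2 of 88 members had a value above 0, and in the same comparison 1 was higher and 13 were lower, beside 23.1% and 13.6%. RpL28, for instance, was at -0.14 ± 0.10 (unadjusted p = 0.193) in Orco2. The difference between the genotypes in the response had a median of -0.10 with 8 of 88 members above 0, and no member passed (edgeR). Unadjusted p was under 0.05 in 0 members, beside 316 genes.

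**Figure D3:**
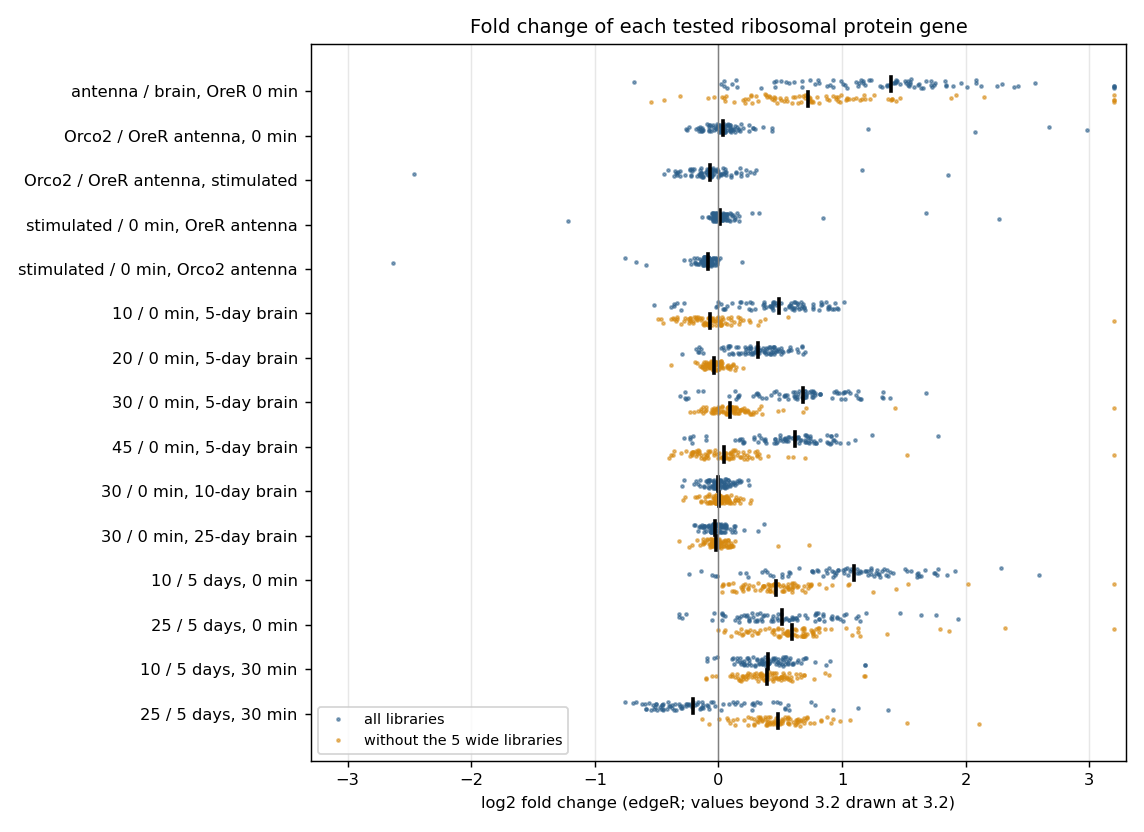
Log2 fold change of each tested ribosomal protein gene in 15 comparisons, with all libraries (blue) and, where the comparison uses brains, without the 5 wide libraries (orange); black bars are medians. The medians of the 4 comparisons of 5-day stimulation move from 0.32 to 0.69 with all libraries to between -0.07 and 0.10 without the wide ones.

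Within the wide libraries the members departed from each other as well as from the other brains. For 81 members with a mean over 10 CPM in brain, deviations were taken from the median of the 18 other brains. In all 5 wide libraries 28 members (34.6%) lay below -1 on the log2 scale, against 108 of 6408 other genes (1.69%), and 65 members lay below 0. RpL8 was the most extreme, with 67.2, 10.9 and 17.5 CPM in the 5-day wide libraries and 5.50 and 5.70 CPM in the 25-day ones. In the other brains its level ran from 160 to 581 CPM, and the lowest of these values were 160 CPM in 45 min C, 224 CPM in 10 min B and 282 CPM in 30 min C. RpL8 had the highest spread of any member around the members' median in brain (SD 1.43), and RpL27 the lowest (SD 0.081). Other low members were RpL34b (mean deviation -3.88), RpL13A (-3.66), RpL35A (-3.39), RpL14 (-2.93), RpL4 (-2.91), RpS14b (-2.88) and RpL13 (-2.84), named here after their values were seen. RpL34b had 4.49 and 5.21 CPM in the 25-day wide libraries, against 245 and 221 CPM in the 25-day A libraries.

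A few members did the opposite. RpL38 had 735 and 624 CPM in the 25-day wide libraries against 214 and 232 CPM in the A libraries of the same age. Together with RpL38 (mean deviation 1.13), RpS3A (0.77), RpS29 (0.67), RpL10 (0.58), RpL21 (0.50), RpL5 (0.49), RpL15 (0.48) and RpS27A (0.01) were above 0 in at least 4 of the 5 libraries. The deviations were not ordered by mRNA length (rho -0.04). The SD over the members' mean deviations was 1.13, against 0.19 in the 10-day libraries.

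**Figure D4:**
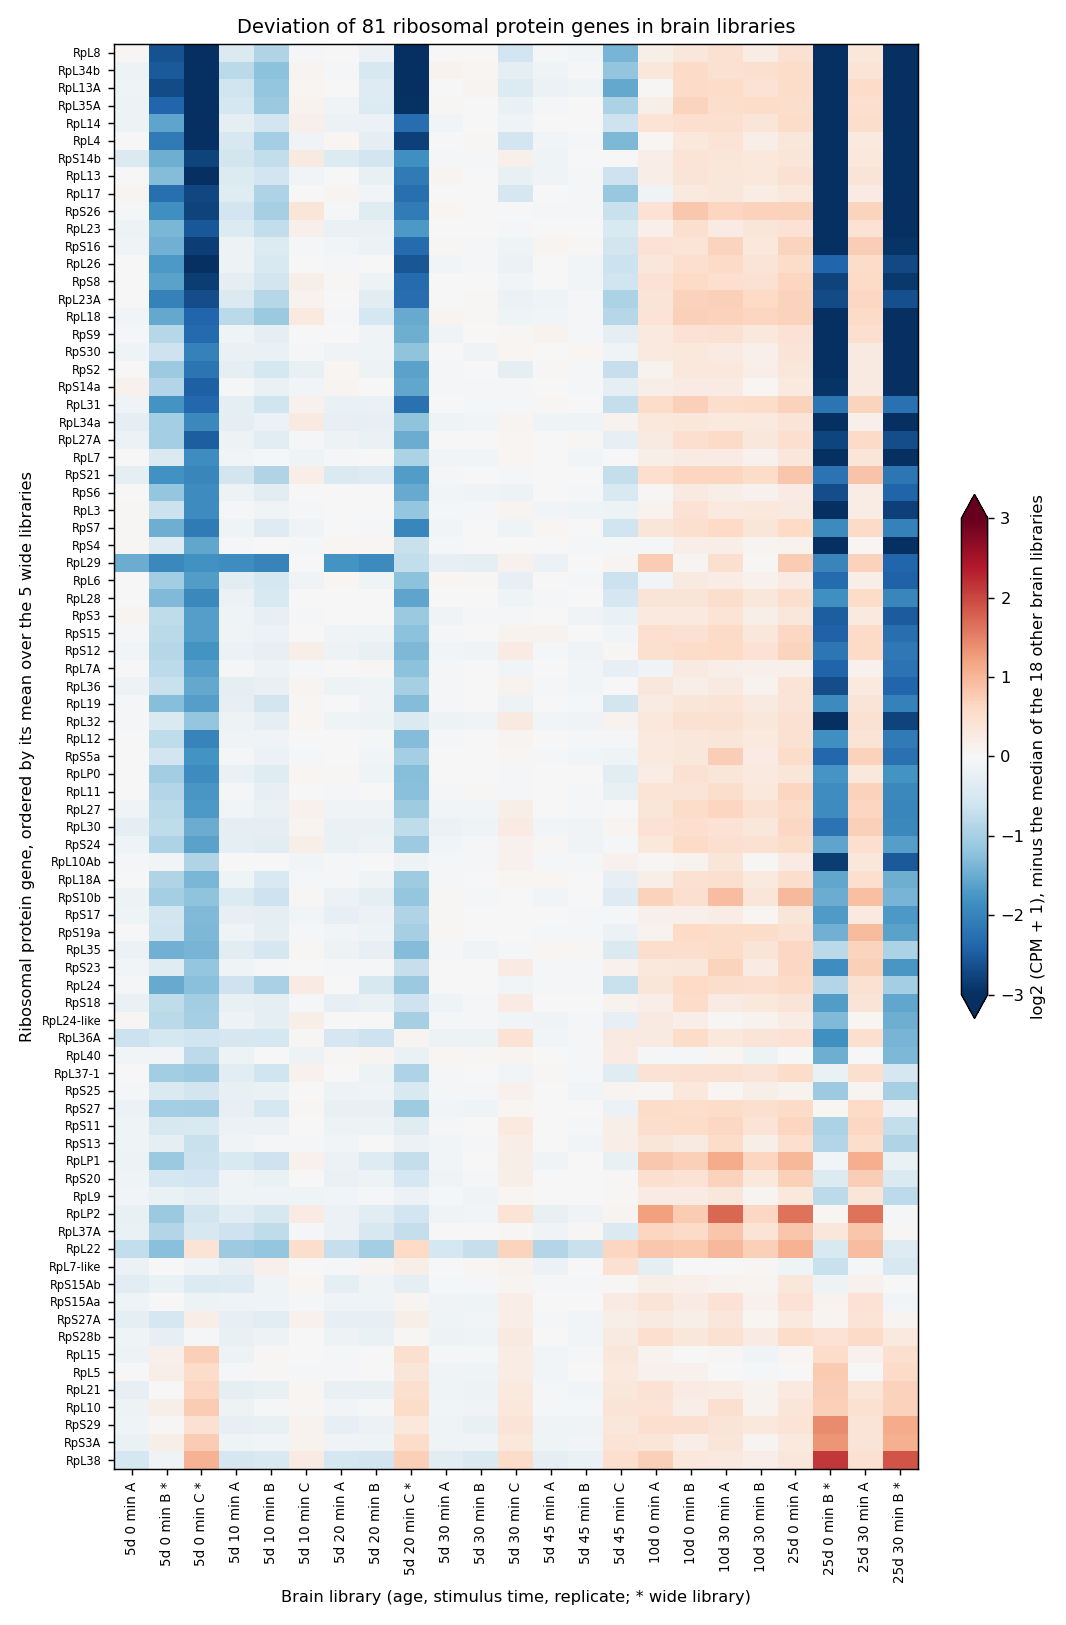
Deviation of 81 ribosomal protein genes (rows, ordered by their mean over the 5 wide libraries) in 23 brain libraries (columns; asterisks mark wide libraries), as log2(CPM + 1) minus the median of the 18 other brains, with blue below and red above 0. RpL8 heads the low end with a mean of -4.85 and RpL38 the high end with 1.13.

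Of the 8 members above 0 in at least 4 wide libraries, 6 shared a feature the rule did not use, their place in the genome (coordinates of BDGP6.54). RpS3A is the only member on chromosome 4 (4:65225-67207, minus strand). RpL5 (2L:22532279-22536884, minus) and RpL21 (2L:22247111-22247875, minus) lie at the centromere end of 2L, RpL38 (2R:4515388-4516458, minus) at that of 2R, and RpL10 (3L:23093190-23095471, minus) and RpL15 (3L:27267255-27268445, plus) at that of 3L. These are regions next to or within pericentric heterochromatin. Genes within 500 kb of them that are not members also deviated upward: all 13 neighbours of RpL38 (median 0.99), 29 of 30 of RpS3A (0.78), all 14 of RpL5 (0.80), 11 of 12 of RpL21 (0.52), all 3 of RpL15 (0.97) and 16 of 23 of RpL10 (0.16). RpL5 and RpL21 lie within 500 kb of each other, so their windows overlap and can count the same genes. Among all 6408 other genes 47.7% were above 0 (median -0.03), and the 74 others on chromosome 4 had a median of 0.73. RpS29 (3R:9778042-9779528, plus) and RpS27A (2L:10408352-10410456, plus) lie away from these regions, and their 88 and 112 neighbours had medians of 0.08 and 0.29. The neighbours of RpL8 (3L:2587456-2588883, plus) had a median of -0.12, far from the -4.85 of RpL8. Not all members toward a centromere rose. RpLP0 (3L:22075867-22077487, plus), the next member outward from RpL10, had a mean of -1.56 and was negative in every wide library. RpL35A (3R:5465630-5467101, minus, -3.39) and RpL13A (3R:5624474-5625947, plus, -3.66) lie nearest the centromere of 3R among the 81 and were among the lowest. The pattern of place was noticed in the data and is a description.

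Other lists deviated in the same libraries. In the 25-day wide libraries the median was -1.68 and -1.65 for oxidative phosphorylation, -1.40 and -1.29 for mitochondrial ribosomal proteins, -1.21 and -1.16 for the proteasome and -1.47 and -1.63 for 5 ribosome-associated genes such as Rack1 and sta. Ribosome biogenesis genes were at 0.13 and 0.10, and TOR pathway genes at 0.64 and 0.26. The summed mitochondrial ribosomal proteins, however, had 1306 to 1615 CPM over the 5 wide libraries and 1273 to 1743 CPM in the ordinary brains. The sums of oxidative phosphorylation, the proteasome and the ribosome-associated genes lay below those of every ordinary brain. Summed neuronal markers ran from 15366 to 21293 CPM in the wide libraries and from 10511 to 19641 CPM in the others, and no counts of the midgut list above 7.68 CPM were seen in the wide ones. Summed fat body markers were 4106 and 3365 CPM in the 25-day wide libraries and at most 2218 CPM in the 18 ordinary brains. The median deviation over that list, however, ran from -1.20 to 0.31 in the wide libraries and from -0.50 to 1.75 in the ordinary ones. The higher sums thus do not stand for the list as a whole. Summed muscle markers were lower in every wide library than in any ordinary brain, where they ran from 124 to 1429 CPM. Summed olfactory markers ran from 3.32 to 10.5 CPM in the wide libraries and from 12.1 to 50.2 CPM in the ordinary ones. The cause of the wide libraries was not tested.

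Stimulation of 5-day brains by odor and light was followed over 10, 20, 30 and 45 min. No member of 84 passed at any time, beside 0% of 10431 genes called. At an unadjusted p under 0.05 there were 0, 0, 3 and 2 members in that order, beside 204, 93, 229 and 181 genes. DESeq2 called 0 members, beside 0.0967%, 0.135%, 0.126% and 0.126% of genes, and limma on TPM called 0, beside 0%. RpS27, a zinc-finger protein of the small subunit, had 154, 85.9 and 84.6 CPM at 0 min and 165, 160 and 182 CPM at 30 min (0.64 ± 0.25, adjusted p = 0.879). Its 2 low control values are those of the wide libraries, and the ordinary control A was close to the exposed libraries. The members' medians were 0.49, 0.32, 0.69 and 0.62 with all libraries, and -0.07, -0.03, 0.10 and 0.04 without the wide ones. At 10 min 2 members lay above all 0 min libraries, beside 4.24% of genes, at 20 min 0, beside 1.65%, at 30 min 31, beside 6.55%, and at 45 min 19, beside 5.38%. No member lay below them at any time, beside 2.23%, 1.59%, 2.83% and 2.64% of genes. Against the ordinary control A alone, 8 members were higher and 20 lower in all 10 min libraries, beside 22.5% and 18.1% of genes, and 19 and 33 in both ordinary 20 min libraries, beside 41.5% and 30.9%. At 30 min 41 members were higher and 12 lower in all 30 min libraries, beside 24% and 19.6% of genes, and 28 and 17 in all 45 min libraries, beside 24.5% and 22.2%. Control A had a fragment length of 370 bases, as had A and B at 10 and 20 min, but all 30 and 45 min libraries had 336. Against this control, 30 or 45 min of exposure and fragment length cannot be told apart. RpS15Ab had 10.1, 10.98 and 9.44 CPM at 0 min and 12.6, 12.3 and 13.5 CPM at 30 min (0.32 ± 0.15, adjusted p = 0.879).

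Older brains were compared at 0 and 30 min. At 10 days the median over 84 members was 0.00 and at 25 days -0.03 (-0.02 without the wide libraries). No member and no gene passed (edgeR, 0% called). At an unadjusted p under 0.05 there were 0 members at either age, beside 335 and 75 genes. DESeq2 called 0 members, beside 0.976% and 0.00967% of genes. Both exposed 10-day libraries were above both deprived ones in 1 member and below in 8, beside 17.4% and 19.8% of genes. RpL32 had 300.1 and 329 CPM at 0 min and 328 and 305 CPM at 30 min in 10-day brains. In 25-day brains it had 332 CPM in A and 22.4 CPM in the wide B at 0 min, and 332 and 34.1 CPM at 30 min, so the libraries differed by replicate letter more than by exposure. The responses of 10-day and of 25-day brains differed from that of 5-day brains by medians of -0.67 and -0.71, and by -0.08 and -0.10 without the wide libraries, with no member called in either. Both comparisons share the 5-day libraries.

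Age was compared at 0 min and at 30 min. At 0 min, RpL37A, a zinc-binding protein of the large subunit, was the single member past the threshold. It had 189 and 135 CPM at 25 days against 92.2, 56.7 and 75.01 CPM at 5 days (1.11 ± 0.26, adjusted p = 0.0458), beside 1.65% of all genes called. At 10 days it had 166 and 158 CPM (1.12 ± 0.26, adjusted p = 0.0719), and no member passed there (edgeR), beside 0.115% of genes called. There were 19 members at an unadjusted p under 0.05, beside 16.8% of genes, and 6 called by DESeq2, beside 5.4%. RpS27, with 256 and 252 CPM at 10 days, was nearest (1.24 ± 0.28, adjusted p = 0.0599). The call of RpL37A was lost without the wide libraries, and also when any single library of the 5 compared was left out; over all alternatives its adjusted p ran from 0.0025 to 0.647. In 7 members both 25-day libraries were above all 5-day ones and in 0 below, beside 11.1% and 8.2% of genes. Leaving out the 25-day library A turned the members' median from 0.51 to -1.11, with 6 members lower and 1 higher of 85 tested, beside 10.7% of genes called, the remaining 25-day library being wide. Without the wide libraries the median was 0.59.

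The 10-day libraries lay above the 5-day ones for most members. At 0 min 71 of 84 were higher in both 10-day than in all 5-day libraries, and 0 lower, beside 25.8% and 17.8% of genes, with a median of 1.09 (0.47 without the wide libraries). Against the 5-day library A alone 79 were higher and 0 lower, beside 48.2% and 37.1% of genes. At 30 min, where no compared library is wide, 65 were higher and 0 lower, beside 16.4% and 15.5% of genes, with a median of 0.40. No member passed (edgeR, beside 0.671% of genes called). Unadjusted p was under 0.05 in 4, beside 8% of genes, and DESeq2 called 0, beside 2.32%. With the wide libraries taken out of the shared estimate of spread, 3 members passed in that comparison: RpL27 (0.53 ± 0.11), RpS15 (0.44 ± 0.09) and RpL12 (0.32 ± 0.07), each with adjusted p = 0.0468, beside 1.07% of genes. RpL27 had 294 and 261 CPM at 10 days and 179, 179 and 215 CPM at 5 days, without overlap.

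At 25 days and 30 min the members split by replicate letter. RpL27 had 298 CPM in A and 47.8 CPM in the wide B, and the members' median was -0.21 with no member called (edgeR, beside 0.489% of genes called; 4 at an unadjusted p under 0.05, beside 17.8%; 1 by DESeq2, beside 4.1%). Both 25-day libraries were above all 5-day ones in 6 members and below in 2, beside 14.4% and 13.2% of genes. Without the 25-day library A the median was -1.93 and 2 members were lower, beside 8.55% of genes called. Without the wide libraries, and so with A alone, the median was 0.48 and 11 members were higher and none lower, beside 3.04% of genes: RpS19a (0.93 ± 0.14, adjusted p = 0.0204), RpLP2 (1.53 ± 0.36), RpLP1 (1.06 ± 0.24), RpS20 (0.74 ± 0.13), RpL30 (0.71 ± 0.16), RpL11 (0.69 ± 0.12), RpS5a (0.69 ± 0.14), RpL27 (0.64 ± 0.13), RpS23 (0.63 ± 0.14), RpS15 (0.56 ± 0.11) and RpL12 (0.39 ± 0.08). RpLP2 had 213 CPM in that library against 64.0, 64.7 and 92.1 CPM at 5 days.

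The 5-day libraries differed by replicate letter in depth and fragment length, so the 6 ordinary older libraries were set against each part of the ordinary 5-day libraries. Against the 9 libraries lettered A and B, 73 of 84 members were higher in every older library and 0 lower (median difference 0.53), beside 15.6% of genes higher and 16.9% lower. Against the 3 libraries lettered C, whose depth (48.7 to 52.9 M) was nearer that of the older ones (26.0 to 76.7 M) than that of A and B (19.3 to 29.5 M), 56 were higher and 0 lower (median 0.39), beside 10.5% and 12.8%. Between the 5-day letters themselves, C was above A and B for 21 members and below for 0 (median 0.08), beside 17.8% and 15.4% of genes. In all, 53 members were higher in the older brains than in both 5-day parts. The share of all genes that did so was not counted, and cannot exceed the 10.5% that were higher than C. RpL32 ran from 200.4 to 231 CPM in A and B, from 250 to 289 CPM in C and from 300.1 to 332 CPM in the older brains. RpLP2 ran from 49.0 to 64.7, from 72.7 to 92.1 and from 106 to 230 CPM, and RpL11 from 185 to 226, from 189 to 220.4 and from 275 to 355 CPM. RpS10b, a small-subunit protein chosen after its values were seen, ran from 135 to 212, from 157 to 213 and from 268 to 405 CPM.

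Some members did not follow. RpL40 ran from 262 to 306 CPM in A and B, from 260 to 344 CPM in C and from 262 to 301 CPM in the older brains, and RpL5 from 1351 to 1512, from 1423 to 1810 and from 1445 to 1613 CPM, so both overlapped throughout. RpL22, whose product also binds histone H1 in flies, did rise against both 5-day parts, but the 5-day letters differed more. Its median log2 difference was 1.37 for C against A and B and 0.23 for the ordinary older brains against C. In 5-day brains RpL22 had 106 to 178 CPM in A and B and 342 to 406 CPM in C, the wide libraries included. The ordinary older brains had 421 to 533 CPM, the wide 25-day B libraries 186 and 195 CPM, and antennae 567 to 633 CPM. Neuronal markers moved with this split in the opposite direction: all 8 were measured, and their summed level was 17680 to 19641 CPM in A and B, 11622 to 13581 CPM in C and 10511 to 12073 CPM in the older brains. Summed glial markers were 5754 to 6666, 5280 to 5872 and 3636 to 4352 CPM, and midgut markers reached 13683 CPM in an older library against at most 299 CPM in A and B and 16.9 CPM in C. Summed hemocyte markers were 817 to 1101 CPM in A and B, 394 to 649 CPM in C and 305 to 695 CPM in the older brains. The median deviation over that list ran from -0.57 to 0.26, from -0.56 to -0.05 and from -0.18 to 1.71 in that order. The hemocyte sums thus do not stand for the list as a whole. The part of all these markers in the age differences was not tested.

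**Figure D5:**
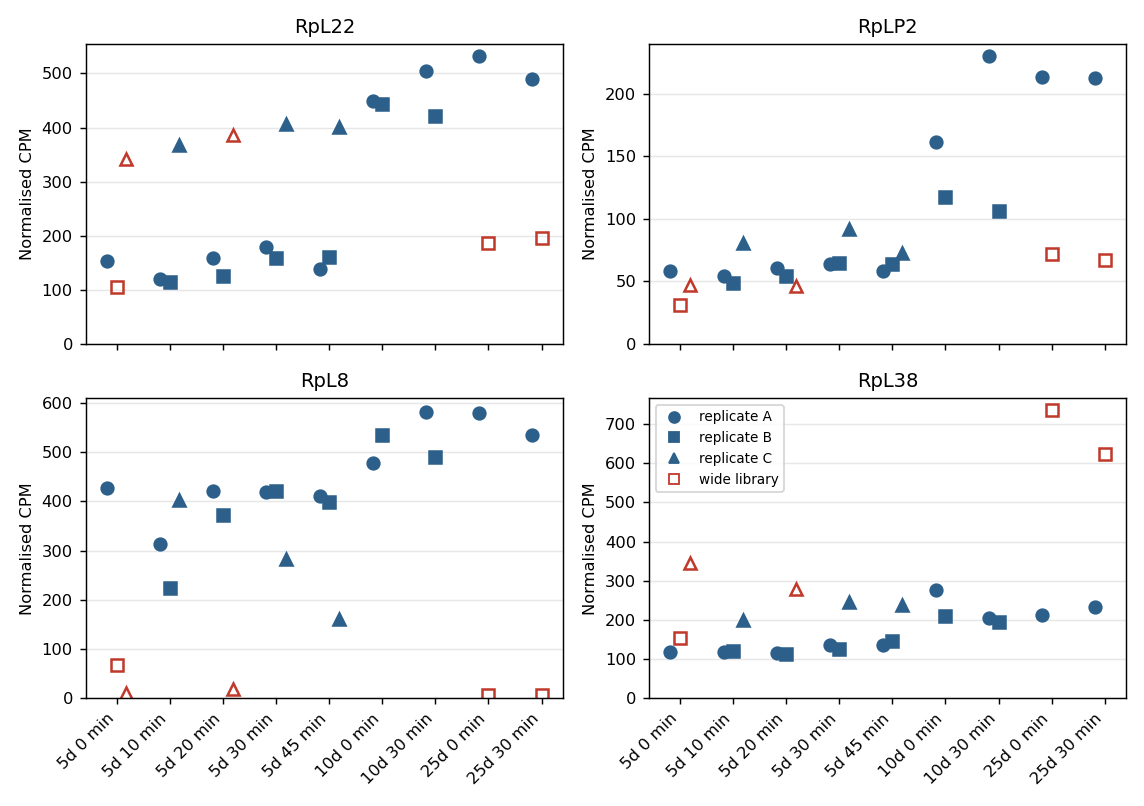
Level of RpL22, RpLP2, RpL8 and RpL38 in each brain library (normalised CPM) by age and time of stimulation, with symbol shape for the replicate letter and open red symbols for wide libraries. RpL22 separates 5-day C (342 to 406 CPM) from 5-day A and B (106 to 178 CPM), RpL8 is at most 67.2 CPM in wide libraries, and RpL38 is highest in the 25-day wide libraries (735 and 624 CPM).

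The related lists did not all share the age pattern. In the comparison of 10 with 5 days at 0 min no gene of the lists of initiation, elongation, biogenesis, proteasome, TOR, promoter factors, mitochondrial ribosomal proteins or oxidative phosphorylation passed. Their medians were 0.12 for initiation, 0.05 for elongation, 0.19 for biogenesis, 0.51 for the proteasome, -0.15 for TOR, -0.09 for promoter factors, 0.47 for mitochondrial ribosomal proteins and 0.51 for oxidative phosphorylation, beside 0.06 over all genes. At 30 min, where no compared library is wide, the last 2 were at 0.00 and -0.12, against 0.40 for the cytosolic set. The summed proteasome list had 1281 to 1426 CPM in the ordinary older brains. It had 1172 to 1227 CPM in ordinary 5-day A and B and 1236 to 1256 CPM in C, without overlap. Ribosome-associated genes had 1997 to 2239, 1306 to 1735 and 1310 to 1709 CPM in that order. The sums of the other related lists overlapped A and B, C or both. Of genes beside the ribosome, Tctp was at 0.57 ± 0.15 (adjusted p = 0.0958) and sta, the gene of the ribosomal protein SA that the symbol rule misses, at 1.58 ± 0.79 (adjusted p = 0.322) at 0 min. sta ran from 94.2 to 117 CPM in the 5 wide libraries and from 211 to 711 CPM in the other brains.

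The genes outside the set whose levels were most like the members' median over the 23 brains were Tango14 (Pearson r 0.995), SH3PX1 (0.990), CG7556 (0.989), CG3760 (0.987) and the proteasome gene Prosbeta6 (0.987), out of 6408 genes. The 23 values share the wide libraries, and over the other 18 the same genes had r of 0.965, 0.926, 0.951, 0.942 and 0.910. The median r with the members' median was 0.96 over the 81 members, down to -0.83 for RpL5. Members enter that median themselves, so their value cannot be set directly against those of the lists. For the lists the median r was 0.95 for ribosome-associated genes, 0.92 for the proteasome and 0.86 for oxidative phosphorylation. It was 0.76 for mitochondrial ribosomal proteins, -0.23 for ribosome biogenesis and 0.03 over all other genes. Over the 18 ordinary brains the order of the lists was different, with 0.85 for ribosome-associated genes, 0.73 for the proteasome, 0.27 for mitochondrial ribosomal proteins, 0.05 for oxidative phosphorylation and 0.04 for biogenesis. The members themselves had a median of 0.90 there, down to -0.27 for RpL7-like.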

How the data were processed

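The authors deposited estimated counts and TPM for every transcript, in a table per library (31 in all), per the file headers. The submitters' processing notes list kallisto 0.43.1, CASAVA 1.7 and edgeR 3.18.1 as tools, and dm6 and GRCm38 as builds. Whether counting used the strand is not given in the sources used here. Brain libraries ran on 2 sequencer models. Which library ran on which is not given in the sources used here, so a sequencer difference cannot be told apart from differences between replicate letters or ages.

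Gene symbols came from Ensembl's BDGP6.54 annotation of the transcripts (30255 of 30490 matched; the rest held 0.396% to 0.514% of counts), and the estimated counts of a gene's transcripts were added and then rounded. Genes were tested with edgeR 4.0.16 in R 4.3.3 (quasi-likelihood F-test, TMM, filterByExpr, robust; Benjamini-Hochberg over all genes tested, threshold 0.05). Antennae (8 libraries, 11298 genes, 88 members), brains (23, 10431, 84) and, for the tissue comparison, all 31 (11772, 88) were fitted separately, with 1 coefficient per group. The untested members had too few counts. Each SE follows from the F-statistic, and levels are TMM-normalised CPM of the fit to 31 libraries. Deposited TPM was summed per gene, used for levels between genes and tested as log2(TPM + 1) with limma 3.58.1. DESeq2 1.42.0 was an alternative. Fragment lengths were derived from the deposited effective lengths. The scripts were tested on simulated counts.

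Members and lists were chosen with earlier results of these data known. The genes named are a panel of 8 members, the 5 highest and 5 lowest by TPM, the members of smallest p or largest called fold per comparison, duplicated members, those of highest and lowest spread, the leading genes of each list and the 5 genes most alike. Others were chosen after their values were seen.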

Additional observations from a re-analysis of the deposited data

How the results depend on the processing

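The number of members called was within 1.5 times of the reported number in the alternatives run, except those given here, with the share of all genes called in parentheses. In the tissue comparison (41 members called), limma on log2(TPM + 1) called 10 (with 62.7% of all genes called), and leaving out a library in turn called 18 to 57. For Orco2 against OreR at 0 min (0 called) the fragment length as a term gave 4, DESeq2 4 and the replicate block 26 (all genes 11.6%, 9.84% and 20.2%), and after exposure (0 called) they gave 7, 3 and 11 (18.9%, 13.7% and 17.9%). For 10 against 5 days at 0 min (0 called) the replicate block gave 15 (13.5%), DESeq2 6 (5.4%) and leaving out a library 0 to 1 (up to 0.152%). At 30 min (0 called) the block gave 2 (4.25%) and leaving out the 5 wide libraries 3 (1.07%). For 25 against 5 days at 0 min (1 called), 0 were called with no filter on low counts, with the fragment length as a term, with the compared libraries alone and without the wide libraries, 2 with RLE normalization (1.72%), 6 with DESeq2 (5.27%), 13 with the block (15.1%), and 0 to 7 leaving out a library (10.7% where it was 7). At 30 min (0 called) the block gave 8 (21.1%), DESeq2 1 (4.1%), leaving out the wide libraries 11 (3.04%) and leaving out a library 0 to 2 (8.55% where it was 2). Leaving out the wide libraries was chosen after seeing the data. No called result of a single member changed its sign. Where a count moved, the cause was not tested.

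Replicate letters were not taken as pairs. Same-lettered libraries of 5-day brains at 0 and 30 min had correlations of deviations of 0.049 (A), 0.050 (B) and 0.542 (C). At 0 and 10 min they were 0.401 to 0.652, and the replicate block called 0 members there as well. The antennal genotypes at 0 min share letter B only, at -0.541. A lone library in an arm was assumed to vary like the others. Depth limits the short members and the lesser copies, many of which had under 3 counts.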
